A study of Homo sapiens with 7 samples.

Results

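The genes described here are 10 genes of protein folding in the endoplasmic reticulum (ER) and of the unfolded protein response, of 62238 genes counted in the series. They were chosen by symbol as ER-resident chaperones, disulfide isomerases and genes of the XBP1 branch: HSPA5, HSP90B1, CALR, CANX, PDIA3, PDIA4, PDIA6, DNAJB9, HERPUD1 and XBP1. All 10 were found in the count files, and all 10 passed the filter on low counts. The cells were MEG-01, an established human megakaryoblastic leukemia line, and every library carries a lentiviral transgene per the labels. The RNA-seq has 3 libraries, 1 of control cells and 1 each of lines that express shRBM15#1 or shRBM15#2, short hairpin RNAs against the RNA-binding protein RBM15. The labels do not say which transgene the control cells carry. The RIP-seq, in which RNA cross-linked to RBM15 is immunoprecipitated, has 1 library with normal IgG and 1 with anti-RBM15 antibody that could be assigned to a group, and 2 libraries that could not. Each knockdown line is a single puromycin-selected line and the control is a single library, so a property of 1 culture cannot be told apart from the effect of a hairpin.

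Proteins that enter the secretory pathway fold in the ER with the help of the chaperone HSPA5 (BiP), the lectin chaperones calnexin and calreticulin, and protein disulfide isomerases. When unfolded proteins build up there, the sensors IRE1, PERK and ATF6 start the unfolded protein response, which raises the production of these helpers and of the machinery that degrades misfolded proteins. IRE1 acts by cutting a short intron out of the mRNA of XBP1 in the cytoplasm, and the joined mRNA then encodes the active transcription factor. The response is best known in secretory cells, and ER stress signaling also takes part in the maturation of megakaryocytes.

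The intron that IRE1 removes is 26 bases long, which is not a multiple of 3, and its loss shifts the reading frame. The annotation places it in the coding sequence of XBP1 on the minus strand of GRCh37 at chr22:29192110-29192135, and in the deposited counts it forms an exon bin of its own, bin 7. The 6 bases gcagca stand both before the bin and at its end, so 7 placements of a removal of 26 bases give the same joined sequence. IRE1 is known to cut between the first g and c of this repeat, upstream of the annotated edge, and the capitals mark the annotated bin, not the cut. The bin is shown with 2 flanking bases on either side, then with the bases at each edge, and last with both flanks joined as in the spliced mRNA.
Annotated bin: caCTCAGACTACGTGCACCTCTGCAGCAgg
Upstream edge: gctgagtccgcagcaCTCAGACTACGTGCA
Downstream edge: TGCACCTCTGCAGCAggtgcaggcccagtt
Joined: gctgagtccgcagcaggtgcaggcccagtt

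Most of the genes carry a match to the ER stress response element in the window from 250 bases before to 50 bases after a transcription start in RefSeq (GRCh38.p14). The table of windows holds 9 of the 10 genes. Both strands were searched for the element, which is CCAAT and CCACG with any 9 bases between them, and 0.0769% of the 35116 windows hold it. Matches were found for 6 of the 9 genes, HSPA5, HSP90B1, CALR, CANX, PDIA6 and XBP1, and 2 of them in HSP90B1. The shorter ER stress response element II, ATTGG and CCACG with 1 base between them, is in 0.0541% of windows and in that of HERPUD1. The sites are shown because the genes of this group share them, with 5 flanking bases on either side and the fixed letters of the element in capitals. The strand is that of the element.
HSPA5, chr9:125241391-125241409, minus strand: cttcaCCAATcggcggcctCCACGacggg
HSP90B1, chr12:103930216-103930234, plus strand: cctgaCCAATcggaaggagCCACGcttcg
HSP90B1, chr12:103930321-103930339, minus strand: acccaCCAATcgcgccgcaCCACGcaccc
CALR, chr19:12938384-12938402, minus strand: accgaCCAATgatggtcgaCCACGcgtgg
CANX, chr5:179698778-179698796, plus strand: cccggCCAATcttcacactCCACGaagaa
PDIA6, chr2:10812853-10812871, minus strand: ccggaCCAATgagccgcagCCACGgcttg
XBP1, chr22:28800603-28800621, minus strand: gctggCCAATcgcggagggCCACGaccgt
HERPUD1, chr16:56932025-56932035, plus strand: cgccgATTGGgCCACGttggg

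The letters of these elements are not in the windows of DNAJB9 and PDIA4. The XBP1-type element TGACGTGG is in 0.729% of windows and in none of the 9 genes. The C/EBP-ATF element TGATGCAA, through which ATF4 acts, is in 0.866% of windows and among the 9 genes only in HERPUD1, on the strand opposite to the gene at chr16:56931966-56931973. The elements do not overlap one another in HERPUD1.

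Counts on exon bins summed to 53230029 in the control, 41629454 in shRBM15#1 and 52458857 in shRBM15#2. A read that spans several bins may be counted in each, and the reads given for genes are sums of such counts. Reads in no exon bin made up 30.4% of the counts of the shRBM15#1 library, against 21.6% in the control and 21.9% in shRBM15#2. RBM15 itself had 3970 reads in control cells, 1957 with shRBM15#1 and 2121 with shRBM15#2, a log2 fold change of -0.93 ± 0.23 (SE) with an adjusted p of 0.0908 by edgeR's quasi-likelihood test. Of 8 megakaryocyte markers 5 passed the filter, with a median log2 fold change of 0.70 and 0 called by edgeR or DESeq2, and 3 of them had an unadjusted p under 0.05 (18.8% of all genes tested). ITGA2B had 45463, 21287 and 31658 reads, ITGB3 had 311, 803 and 2702, and PPBP had 118, 274 and 2968, while PF4 and GP9 had 2 to 5 reads in every library. All 7 erythroid markers were higher in the knockdown lines and 4 of them were called (0.0683% of all genes tested were called higher), with a summed level of 934 CPM (counts per 1000000 reads of the normalized library size) in control cells, 4343 with shRBM15#1 and 4270 with shRBM15#2. Summed markers of lymphoid cells (4 genes) ranged from 1.6 to 4.02 CPM and those of fibroblasts (3 genes) from 1.01 to 6.54, and those of epithelia (3 genes) were 75.5, 56.5 and 50.5, nearly all from EPCAM. The part of these differences in the results below was not tested.

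The expression of the genes was compared between the control and the 2 knockdown lines. Of the 10 genes, the 3 counted here to the XBP1 branch stood lowest. HERPUD1 was at 31.3% and 21.9% of its control level in shRBM15#1 and shRBM15#2, DNAJB9 at 38.8% and 50.8%, and XBP1 at 60.2% and 55.2%. Other targets of XBP1 were not gathered as a set, so these 3 do not stand for the branch as a whole. HSPA5 was at 67.1% and 68.2%. CANX was at 76.1% and 83.6% and HSP90B1 at 78.5% and 85.6%. PDIA3, PDIA4, PDIA6 and CALR were at 75.3% to 83.0% in shRBM15#1 and at 99.9% to 121% in shRBM15#2. By edgeR's quasi-likelihood test at a Benjamini-Hochberg adjusted p under 0.01, 0 of the 10 genes were called, where 0.346% of the 24887 genes tested were. The DESeq2 Wald test, which called 2.11% of the same genes, called 1 of the 10, HERPUD1. At an adjusted p under 0.05, HERPUD1 was the only one (1.74% of all genes), and at an unadjusted p under 0.05 there were 4 of 10, namely HERPUD1, DNAJB9, XBP1 and HSPA5 (18.8% of all genes). The median log2 fold change of the 10 genes was -0.30, against 0.02 over all genes tested. It was -0.19 without shRBM15#1 and -0.16 with a minimum summed count of 300.

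**Figure D1:**
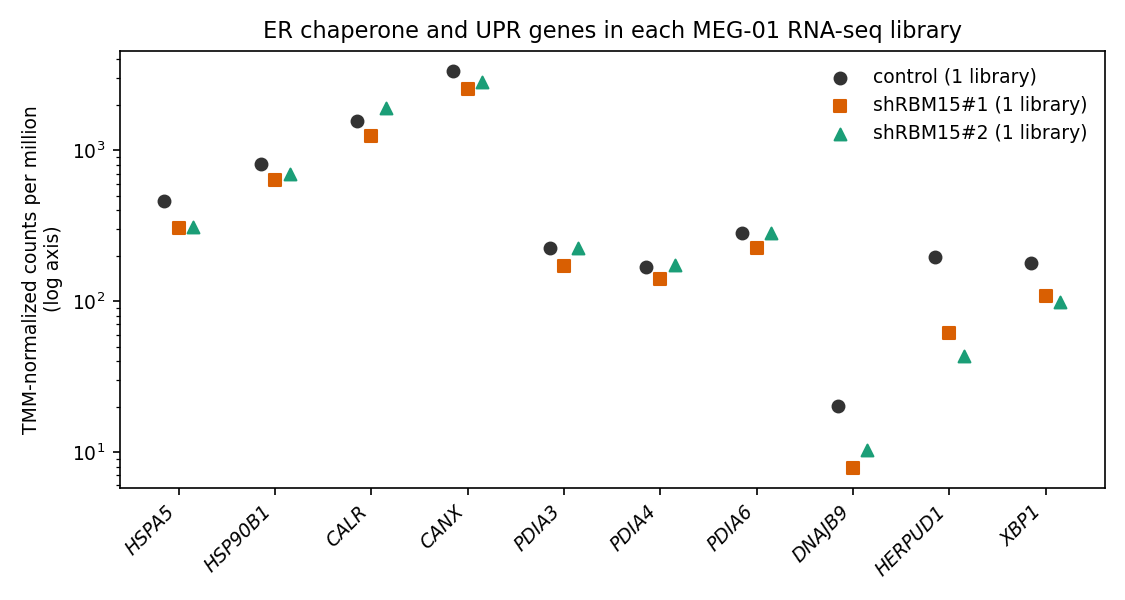
Level of each of the 10 genes in each RNA-seq library, in TMM-normalized CPM on a log axis. Each point is 1 library, with the control as a circle, shRBM15#1 as a square and shRBM15#2 as a triangle. HERPUD1 has the widest gap, from 196 in control cells to 61.5 with shRBM15#1 and 43.1 with shRBM15#2.

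HERPUD1 (ENSG00000051108, chr16:56965960-56977798, plus strand, GRCh37 as for the genes below) encodes an ER membrane protein that helps to assemble the complex for ER-associated degradation, and it is a target of both the XBP1 branch and ATF4. It had 9719 reads in the control, 2755 in shRBM15#1 and 2247 in shRBM15#2, which is 196, 61.5 and 43.1 CPM after TMM normalization. Both knockdown libraries lay far below the control, and the gap between them was small beside that. The log2 fold change was -1.91 ± 0.26 (SE), with an adjusted p of 0.0118 by edgeR's quasi-likelihood test, just outside the limit of 0.01. HERPUD1 passed that limit with size factors in place of TMM (adjusted p = 0.00399), with the DESeq2 Wald test (adjusted p = 3.57e-06) and without the filter on low counts (adjusted p = 1.05e-08). With a minimum summed count of 300 (adjusted p = 0.0503) and with the longest exon bin only (adjusted p = 0.0606) it missed even the limit of 0.05. Of all genes tested, 0.872% had a lower log2 fold change.

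DNAJB9 (ERdj4; ENSG00000128590, chr7:108210012-108215294, plus strand), a co-chaperone of HSPA5 and a known target of spliced XBP1, was the least abundant of the 10 genes. It had 1002 reads in control cells, 352 with shRBM15#1 and 537 with shRBM15#2, which is 20.2, 7.86 and 10.3 CPM. Both lines lay below the control, and the gap between them was smaller than the gap of either to it. The log2 fold change was -1.16 ± 0.30 (SE), with an adjusted p of 0.107 by edgeR.

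XBP1 (ENSG00000100219, chr22:29190543-29196585, minus strand) is the transcription factor of the branch. Its reads numbered 8859, 4823 and 5152, or 179, 108 and 98.7 CPM, and the knockdown lines lay close to each other and well below the control. The log2 fold change was -0.79 ± 0.22 (SE), with an adjusted p of 0.117 by edgeR.

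HSPA5 (ENSG00000044574, chr9:127997132-128003609, minus strand), the ER form of HSP70 that also holds the stress sensors inactive, had 22646, 13739 and 16290 reads, or 458, 307 and 312 CPM. The lines differed from each other far less than from the control. The log2 fold change was -0.56 ± 0.22 (SE), with an unadjusted p of 0.0284 and an adjusted p of 0.216 by edgeR.

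CANX (calnexin) and CALR (calreticulin) bind glycoproteins through their sugar chains and keep them in the ER until folded. CANX (ENSG00000127022, chr5:179105629-179157926, plus strand) had 166805, 114823 and 147108 reads, or 3371, 2565 and 2819 CPM, with both lines below the control and a log2 fold change of -0.32 ± 0.22 (SE). CALR (ENSG00000179218, chr19:13049392-13055303, plus strand) had 77532, 55725 and 98704 reads, or 1567, 1245 and 1892 CPM. The control of CALR lay between the lines, with a log2 fold change of 0.00 ± 0.28 (SE). HSP90B1 (GRP94; ENSG00000166598, chr12:104323885-104347423, plus strand), the HSP90 of the ER, had 40057, 28444 and 36166 reads, or 809, 635 and 693 CPM, and a log2 fold change of -0.29 ± 0.22 (SE). The adjusted p-values of these genes by edgeR were 0.458 for CANX, 0.998 for CALR and 0.52 for HSP90B1. Without shRBM15#1 the log2 fold change was -0.21 for CANX and -0.17 for HSP90B1, and that of HSP90B1 turned to 0.38 with the longest exon bin only.

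The disulfide isomerases form and rearrange the disulfide bonds of folding proteins. PDIA3 (ERp57; ENSG00000167004, chr15:44038590-44065477, plus strand), which works with calnexin and calreticulin, had 11175, 7617 and 11769 reads, or 226, 170 and 226 CPM. PDIA4 (ERp72; ENSG00000155660, chr7:148700154-148725733, minus strand) had 8355, 6271 and 9041 reads, or 169, 140 and 173 CPM. PDIA6 (P5; ENSG00000143870, chr2:10923517-10978103, minus strand) had 13891, 10117 and 14794 reads, or 281, 226 and 284 CPM. In each of the 3 genes the shRBM15#2 library stood at 99.9% to 103% of the control and the shRBM15#1 library at 75.3% to 83.0% of it. The log2 fold changes were -0.19 ± 0.25 (SE) for PDIA3, -0.11 ± 0.24 for PDIA4 and -0.14 ± 0.24 for PDIA6, none larger than its error.

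**Figure D2:**
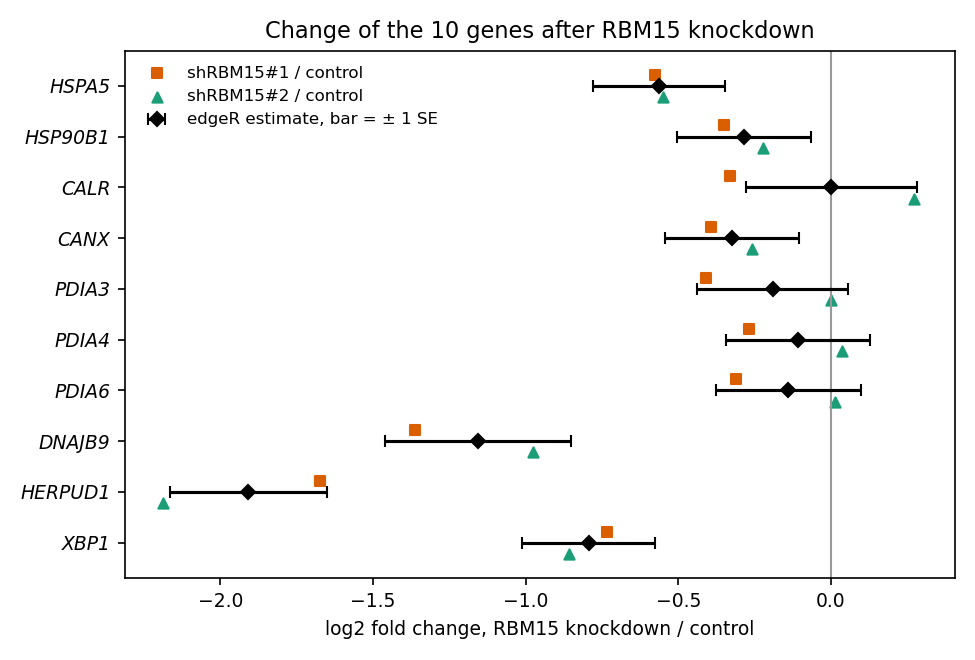
log2 fold change of each of the 10 genes after RBM15 knockdown. Diamonds with bars give the edgeR estimate and 1 SE, squares the shRBM15#1 library over the control and triangles the shRBM15#2 library over the control. HERPUD1, DNAJB9, XBP1, HSPA5, CANX, HSP90B1 and PDIA3 have both lines on the lower side, PDIA3 only just in shRBM15#2 (-0.0017). The lines lie on opposite sides of 0 for CALR, PDIA4 and PDIA6.

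The lines were compared gene by gene. Both lay below the control in 7 of the 10 genes, where 39.5% of all genes tested did, and both lay above it in 0. PDIA3 is among the 7, although it stood at 99.9% of the control in shRBM15#2. In CALR, PDIA4 and PDIA6 they lay on opposite sides. The level was lower in shRBM15#1 than in shRBM15#2 in 8 of the 10 genes, where 48.3% of all genes tested were, with HERPUD1 and XBP1 as the exceptions. The 7 chaperones and isomerases had a median log2 ratio to the control of -0.35 in shRBM15#1 and 0.00 in shRBM15#2, while DNAJB9, HERPUD1 and XBP1 had medians of -1.36 and -0.98. Reads in no exon bin were also a larger share of the counts in shRBM15#1, and the part of that difference was not tested. A lower level per library cannot be told apart from fewer cells that express a gene.

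Per length of exonic sequence, the order of the genes was led by the lectin chaperones. In the control library CALR was at 577 RPKM, the CPM per kilobase of exon bins, CANX at 541, HSP90B1 at 178, HSPA5 at 117, PDIA6 at 68.5, XBP1 at 59.1, PDIA3 at 53.3, PDIA4 at 51.5, HERPUD1 at 47.0 and DNAJB9 at 7.14. With 1 control library these control levels have no replicate error. In the knockdown lines CALR, at 459 and 697 RPKM, was first and CANX, at 411 and 452, second, and their order was the same in every library, although the gap between them in shRBM15#1 was smaller than the spread of CALR between the lines. HSP90B1 (139 and 152), HSPA5 (78.5 and 79.9) and PDIA6 (55.1 and 69.1) kept ranks 3 to 5. The RPKM of PDIA6 is likely too low, and without its bins of 0 reads PDIA6 stood above HSPA5 in shRBM15#2, at 93.6. PDIA3 (40.1 and 53.2) and PDIA4 (42.7 and 52.9) changed places between the lines and do not differ beyond their spread. XBP1 moved from rank 6 in the control to rank 8 in both lines, at 35.6 and 32.6 RPKM. The split of reads between PDIA3 and its copy PDIA3P1 is uncertain, so the place of XBP1 above PDIA3 in the control is uncertain too. RPKM also divides by long bins that hold few reads. Bin 24 of PDIA3 has 1734 of its 4240 exonic bases but 134 of its 11175 control reads. Bin 9 of XBP1, of a retained intron, has 853 of 3028 bases but 368 of 8859 control reads. Such bins lower the RPKM of each gene by a different amount. The order of PDIA3 and XBP1, and other close ranks, can therefore depend on the bins counted. HERPUD1 stayed at rank 9, at 14.7 and 10.3 RPKM, and DNAJB9 at rank 10, at 2.77 and 3.63 RPKM. Short bins held reads, so a read that spans several bins may be counted in each, and genes with many bins can be overstated on this scale.

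Whether IRE1 splicing of XBP1 differed was read from the 26-base bin, which reads of the joined mRNA skip. The bin had 376 reads in control cells, 224 with shRBM15#1 and 250 with shRBM15#2. The exon bins on its 2 sides had 633 and 487 reads in the control, 356 and 259 in shRBM15#1, and 361 and 284 in shRBM15#2. The ratio of the 26-base bin to the mean of these neighbours was 67.1% in the control, 72.8% in shRBM15#1 and 77.5% in shRBM15#2. As a share of all XBP1 reads, the bin held 4.24% (95% Wilson interval 3.84 to 4.68) in the control, 4.64% (4.09 to 5.28) in shRBM15#1 and 4.85% (4.30 to 5.47) in shRBM15#2. Both lines lay above the control on either scale, by 1.12 times on average, but the intervals of the share overlap. These intervals cover counting error only, and a read that touches several bins may be counted in each. In the test of exon usage, the bin had a log2 fold change relative to its gene of 0.16 ± 0.22 (SE), and it was not called (unadjusted p = 0.566, diffSpliceDGE in edgeR). Neither scale is a direct measure of the spliced mRNA, because a read that ends in a neighbouring bin can miss the 26-base bin without being spliced.

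**Figure D3:**
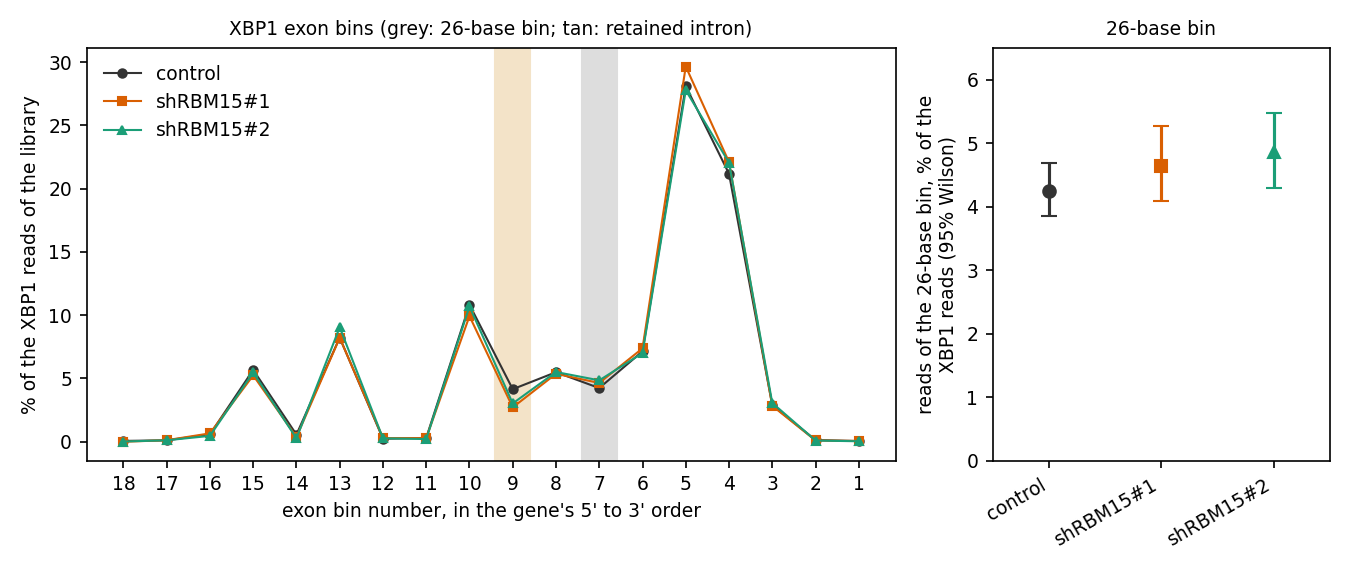
Left, the share of XBP1 reads on each exon bin in each library, in percent, with bins in the 5′ to 3′ order of the gene, the 26-base bin shaded grey and the retained-intron bin shaded tan. Right, the share of the 26-base bin alone, with 95% Wilson intervals. The control stands at 4.24% and the knockdown lines at 4.64% and 4.85%, with intervals that overlap.

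Exon usage was compared over the 225 exon bins of the 10 genes that passed the count filter, of 268 bins in all. The limits were those of the study, a fold of more than 1.2 at an unadjusted p under 0.05. They were passed by 5 bins, 4 of CANX and 1 of XBP1, or 2.22% of the bins of these genes, beside 1.45% of the 234192 bins tested. The order turned round under 2 other settings, to 3.11% beside 4.30% with voom and diffSplice and to 0.565% beside 0.880% with a minimum of 300 reads. Genes with such a bin made up 15.2% of the 12893 genes with tested bins. After adjustment, 0 of the 225 bins had a p under 0.05 by diffSpliceDGE in edgeR, beside 0.0205% of all bins. With voom and diffSplice there were 2, beside 0.194% of all bins. The bins of HSPA5, HSP90B1, CALR, PDIA3, PDIA4, PDIA6, DNAJB9 and HERPUD1 that passed the count filter had unadjusted p-values of 0.107 and above by diffSpliceDGE. With voom and diffSplice 7 bins passed the study's limits, and the other 2 were bin 5 of CANX (18, 18 and 32 reads, unadjusted p = 0.00753) and bin 10 of HSP90B1 (60, 60 and 78 reads, unadjusted p = 0.0127), neither with an adjusted p under 0.05. When bins with 1 read or more were tested by diffSpliceDGE, bin 23 of PDIA6 (0, 2 and 3 reads) also passed the study's limits.

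The 4 called bins of CANX lie in its 5′ untranslated region, upstream of the coding exons, and carry few reads. Bins 2, 3 and 4 are contiguous pieces of an upstream first exon on the plus strand of GRCh37, at chr5:179125407-179125417, chr5:179125418-179125427 and chr5:179125428-179125604, and may share reads. Bin 4, 177 bases long, had 42, 60 and 122 reads, or 0.0252%, 0.0523% and 0.0829% of the CANX reads of the library. Its share was higher in both lines than in the control, with a log2 fold change relative to the gene of 1.43 ± 0.19 (SE), an unadjusted p of 1.56e-04 and an adjusted p of 0.253 by diffSpliceDGE in edgeR. With voom and diffSplice its adjusted p was 1.54e-05. Bins 2 and 3 had 4, 6 and 20 reads and 10, 14 and 31 reads. Bin 16, an alternative exon of the untranslated region at chr5:179126576-179126771, had 42, 62 and 64 reads, a relative log2 fold change of 0.94 ± 0.20 (SE) and an unadjusted p of 0.0176. It is the other bin of the 10 genes with an adjusted p under 0.05 by voom and diffSplice (adjusted p = 0.0195). The main 5′ exon piece, bin 15, had 1020, 610 and 837 reads, or 0.611%, 0.531% and 0.569% of the gene, far above the upstream exon in every library.

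**Figure D4:**
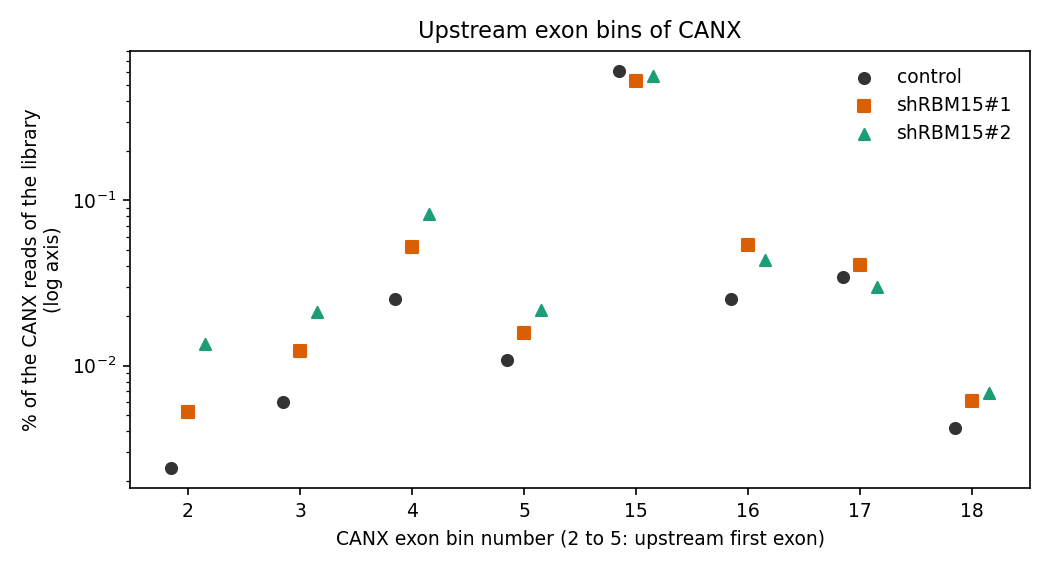
Share of the CANX reads of each library on its upstream exon bins, in percent on a log axis. Each point is 1 library. Bin 4 stands at 0.0252% in control cells, 0.0523% with shRBM15#1 and 0.0829% with shRBM15#2, and bin 15, the main piece, stands at 0.531% to 0.611%.

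The called bin of XBP1 is bin 9, at chr22:29192181-29193033, which is exonic only in a retained-intron transcript. It had 368 reads in control cells, 131 with shRBM15#1 and 156 with shRBM15#2, or 4.15%, 2.72% and 3.03% of the XBP1 reads. The relative log2 fold change was -0.54 ± 0.22 (SE), with an unadjusted p of 0.048, which became 0.0585 when bins with 1 read or more were tested. In this bin the share of XBP1 reads was lower in both lines than in the control.

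Genes around the group in the same pathways were compared by lists, for which the number called at an adjusted p under 0.01 is given (edgeR, as above). The lists were chosen with earlier results of these data known, so their counts beside the shares of all genes are descriptions and not tests. In the PERK-ATF4 branch, the arm of the response that slows translation and induces ATF4, all 11 genes were lower in both lines (39.5% of all genes were), 4 fell by edgeR and the median log2 fold change was -1.75. DESeq2 called 9 of the 11 lower, beside 2.11% of all genes in either direction. The 4 were TRIB3, a pseudokinase (-3.37 ± 0.23 SE, adjusted p = 9.92e-04), NUPR1, a stress-induced chromatin protein (-2.41 ± 0.28, adjusted p = 0.00595), SESN2, an inhibitor of mTORC1 (-2.03 ± 0.26, adjusted p = 0.00976), and ASNS, asparagine synthetase (-1.86 ± 0.23, adjusted p = 0.00851). ATF4 had a value of -1.01 ± 0.22, with an adjusted p of 0.0592. EIF2AK3, which encodes PERK, is in the list of sensors and not in this one. It had 1079, 802 and 857 reads and a value of -0.34 ± 0.27 (SE, adjusted p = 0.529 by edgeR). Whether the activity of PERK differed was not tested. The background share of genes called lower was 0.277%.

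In ER-associated degradation, 1 of 19 genes fell by edgeR (0.277% of all genes), DESeq2 called 2 lower (2.11% of all genes in either direction), and 6 had an unadjusted p under 0.05 by edgeR (18.8% of all genes). Of these 6, VCP was higher in both lines (0.54 ± 0.22 SE) and the others were lower. The median of the list was -0.19, but 0.0443 without shRBM15#1 and -0.050 with a minimum summed count of 300. The edgeR call was SEL1L, the partner of the ubiquitin ligase that HERPUD1 serves, with 25629, 4620 and 7698 reads and a log2 fold change of -2.05 ± 0.26 (SE, adjusted p = 0.00851). EDEM1, which routes glycoproteins to degradation, had a value of -1.41 ± 0.24 (adjusted p = 0.0259). OS9, a lectin of the same complex, had a value of -0.77 ± 0.33, with log2 ratios to the control of -1.27 in shRBM15#1 and -0.40 in shRBM15#2. With a minimum summed count of 300, 0 genes of the series were called, so SEL1L and the 4 genes of the PERK-ATF4 branch lost their calls.

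Of the 10 genes of the sensors and their processing, 0 were called by edgeR, 2 by DESeq2 (2.11% of all genes) and 3 had an unadjusted p under 0.05 by edgeR (18.8% of all genes). Their median was -0.45. ERN1, which encodes IRE1, had 2524, 562 and 809 reads and a value of -1.86 ± 0.26 (SE, adjusted p = 0.0133), outside the limit of 0.01 but under 0.05. CREB3L2, an ER-bound transcription factor, had a value of -1.34 ± 0.26 (adjusted p = 0.0416), and ATF6 one of -0.93 ± 0.24 (adjusted p = 0.101).

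Of 32 other ER folding factors, 0 were called by edgeR and 1 by DESeq2 (2.11% of all genes), and 9 had an unadjusted p under 0.05 by edgeR (18.8% of all genes). Their median was -0.28, but -0.12 without shRBM15#1 and -0.13 with a minimum summed count of 300. The widest differences were those of HSPA13 (-1.36 ± 0.22 SE), the oxidase ERO1B (-1.24 ± 0.34) and ERP29 (-0.97 ± 0.26). Of 20 genes of ER translocation and signal peptide processing, 0 were called by edgeR and 1 by DESeq2, and 5 had an unadjusted p under 0.05 by edgeR, beside the same shares of all genes, with a median of -0.30, or -0.20 without shRBM15#1 and -0.15 with the minimum of 300. SEC63, which recruits HSPA5 to the translocon, had a value of -1.55 ± 0.22 (SE, adjusted p = 0.0129), SSR2 one of -0.70 ± 0.22 and SEC11C one of -0.65 ± 0.24.

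The cytosolic chaperones went the other way. Of 12 genes 11 were higher in both lines (39.7% of all genes were), with a median of 1.08. At 0.01, 0 were called by edgeR and 5 by DESeq2 (2.11% of all genes). By edgeR 4 had an adjusted p under 0.05 (0.534% of all genes were higher at that limit) and 8 an unadjusted p under 0.05 (18.8% of all genes). HSPA1A had a value of 2.64 ± 0.35 (SE, adjusted p = 0.0106), HSP90AA1 of 1.57 ± 0.24 (adjusted p = 0.0164) and HSPA8 of 1.55 ± 0.24 (adjusted p = 0.0175), all by edgeR. HSPA1A shares nearly all of its sequence with HSPA1B, and the split of reads between them is uncertain. HSP90AB1, which had more reads than HSP90AA1 in the control, had a value of 0.26 ± 0.22 (adjusted p = 0.577).

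**Figure D5:**
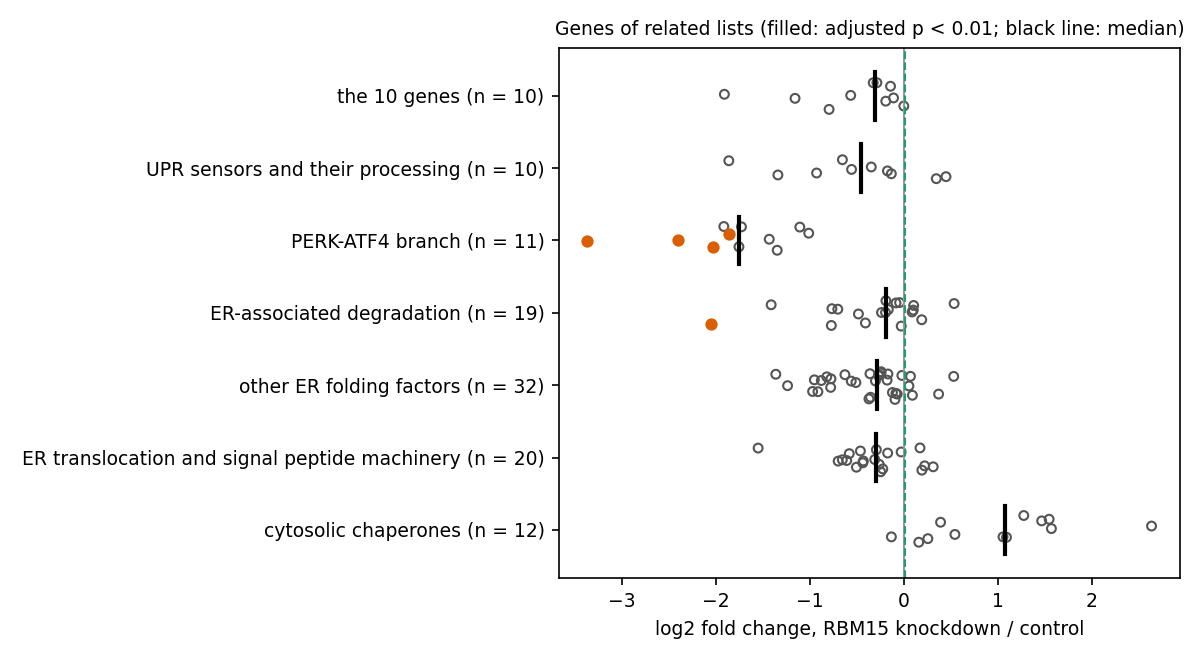
log2 fold change after RBM15 knockdown of each tested gene in the 10 genes and in 6 related lists. Filled points have an adjusted p under 0.01, black lines mark the median of each list and the dashed line the median of all genes tested. The PERK-ATF4 branch has its median at -1.75 and the cytosolic chaperones at 1.08.

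Across all genes tested, 18 had the ER stress response element in a promoter window, and their median log2 fold change was -0.30. In 14 of them, or 77.8%, the value was below 0, where it was in 48.9% of all genes tested, and 0 were called by edgeR. Leaving out the 6 described here, the other 12 also had a median of -0.30. The 14 tested genes with element II had a median of -0.16, and the 127 with the C/EBP-ATF element a median of 0.10, with 2 called lower. All genes had a median of 0.02, and the 2 called are 1.57% of the 127, beside 0.277% of all genes. These are descriptions, and no test was made.

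The RIP-seq list of RBM15 sites was searched for the 10 genes. None of its 1515 sites carries the symbol of any of them, although 9 of the 10 genes had at least 100 CPM in the control, a level at which 19.4% of tested genes have a site. By position, 1 site lies within the span of a member: PDIA6 is on the minus strand, and a site of 275 bases at chr2:10924055-10924329 lies on the plus strand, in the 3′ untranslated region of the neighbour ATP6V1C2, with 32 reads with IgG and 408 with anti-RBM15. For the other 9 genes the nearest site was 15736 bases away or farther. The list holds only sites that passed the filter of the study, so a gene without an entry may still have had reads.

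Sites were listed for 12 genes of the related lists, where 3.65% of all genes tested and 19.4% of those with at least 100 CPM in the control have one. They were 5 of 20 genes of ER translocation, 4 of 12 cytosolic chaperones, 2 of 19 genes of ER-associated degradation, 1 of 10 genes of the sensors and their processing, 0 of 11 genes of the PERK-ATF4 branch and 0 of 32 other folding factors. SEC63 had a site in its 3′ untranslated region at chr6:108192724-108193016 with 8 reads with IgG and 170 with anti-RBM15. CREB3L2 had an intronic site at chr7:137576698-137577056 with 1 and 74 reads. VCP, the ATPase that pulls misfolded proteins from the ER membrane, had 9 and 530 reads in its 3′ untranslated region, and SSR3 had 12 and 282. HSP90AA1 and HSP90AB1 had the most reads of the 12, with 161 and 13387 reads and with 145 and 15404 reads, while their ER relative HSP90B1 had no site. With 1 library per antibody and unknown depth, these counts are given without a test.

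Some of the values rest on reads that other loci could share. Copies named after the genes were counted for HSPA5, PDIA3 and XBP1. PDIA3P1, the processed copy of PDIA3, had 2431, 1592 and 2385 reads, or 20.3% to 21.8% of the reads of PDIA3 in every library, and the split between these is uncertain. The copies of HSPA5 and XBP1 had under 1% of the reads of their gene. The reads are unstranded, so reads of PDIA6 and ATP6V1C2, whose exons overlap, cannot be told apart where they do. In PDIA6, 7 bins with 1073 of its 4101 exonic bases had 0 reads in every library, and 6 of these overlap exons of another gene. The reads and RPKM of PDIA6 are therefore likely too low. Over its other bins PDIA6 was at 92.7, 74.6 and 93.6 RPKM, which in shRBM15#2 is above HSPA5.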

How the data were processed

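Unstranded RNA-seq reads of the 3 libraries had been aligned to GRCh37, and the authors deposited raw counts per exon bin of Ensembl gene models (HTSeq 0.6.0 is among the tools in the submitters' processing notes). Their table of comparisons repeats these counts beside fold changes and p-values, which were not used. For the RIP-seq the authors deposited raw counts of 1515 peaks that passed their test, so library depth is unknown. Reads outside bins or in ambiguous positions, 23.2%, 32.0% and 23.5% of the counts of the libraries, stayed out of all totals.

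Counts were summed per gene and compared in edgeR 4.0.16 (R 4.3.3) by the quasi-likelihood test after TMM normalization. Genes needed 30 reads over the libraries, and the limit for a call was an adjusted p (Benjamini-Hochberg) of 0.01. CPM and RPKM use TMM library sizes and the exonic bases of the bins. Exon usage was compared with diffSpliceDGE on bins with at least 30 reads. The ratio of the 26-base bin to its neighbours has no interval, since its reads are no part of theirs. The steps for genes and for bins were run on simulated data. The simulated dispersion was set below the common dispersion of the gene counts here, 0.0709. Those runs therefore do not show how the tests perform on these libraries. A single control leaves 1 residual degree of freedom, between the 2 knockdown lines. The p-values therefore rest on the spread between these 2 lines, moderated by a trend over all genes or bins tested. They hold no spread between control cultures, and a control culture unlike others would count as an effect. The SE of an edgeR value is the absolute log2 fold change divided by the square root of its F statistic. Alternatives were size factors, DESeq2 1.42.0, other count minimums, the longest exon bin, voom with diffSplice (limma 3.58.1) and leaving out each line. Promoter windows come from RefSeq and the 26-base sequence from the GRCh37 genome, read with Python 3.11.15. The labels of 2 RIP-seq libraries conflict with their side in the study's comparison, and these libraries were not compared. The genes and lists were chosen with earlier results of these data known. Genes named are the 10 genes, RBM15, the called genes and the 3 widest differences of each related list, exon bins past the limits, and genes with sites. Cell type markers, ATF4, EIF2AK3, HSPA1B and genes that share reads or positions with the 10 genes were named beyond this rule. Protein sequences were not used here.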

Additional observations from a re-analysis of the deposited data

Results flagged for a closer look

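The 2 knockdown lines lay on opposite sides of the control in 3 of the 10 genes. CALR had a log2 ratio to the control of -0.33 in shRBM15#1 and 0.27 in shRBM15#2. PDIA4 had ratios of -0.27 and 0.04, and PDIA6 had ratios of -0.31 and 0.01. Each line is 1 library and both are set against the same control, and the difference between the lines was not tested.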

How the results depend on the processing

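No paired analysis was possible because the control is a single library, so the groups share fewer than 2 replicate numbers. The number of genes called at an adjusted p under 0.01 was 86 with the chosen settings, 191 with size factors, 525 with DESeq2, 5 with the longest exon bin only and 0 with a minimum summed count of 300 (2938 at an unadjusted p under 0.05). It was 801 without the filter, which moved the median of all genes to 0.44 and the share of lower calls from 80.2% to 65.7%. HERPUD1 was called with size factors, DESeq2 and no filter, and the other 9 genes under none of these settings. PDIA6 was not tested with the longest exon bin, which held 0 reads in every library. Directions turned for HSP90B1 (0.382) and PDIA4 (0.0357) with the longest bin, for PDIA4 (0.0300) with a minimum of 300 and for CALR (-0.12) without the filter. The cause was not tested.

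When either line was left out, the log2 fold change ranged from -0.27 to 0.32 for CALR, from -0.35 to 0.0485 for PDIA3, from -0.21 to 0.0876 for PDIA4, from -0.25 to 0.0647 for PDIA6, from -0.29 to -0.17 for HSP90B1 and from -0.34 to -0.21 for CANX. The median ranged from -0.34 to -0.19 for the 10 genes, from -0.42 to -0.32 for the sensors, from -0.25 to 0.0443 for ER-associated degradation (above 0 without shRBM15#1), from -0.35 to -0.20 for ER translocation and from 1.04 to 1.22 for the cytosolic chaperones. With a minimum of 300 the median was -0.16 for the 10 genes, -0.050 for ER-associated degradation, -0.15 for ER translocation and 1.22 for the cytosolic chaperones.

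Exon bins past the study's limits numbered 3392, but 8733 with a minimum of 1 read, 736 with a minimum of 300 and 10069 with voom and diffSplice. At an adjusted p under 0.05 there were 48, and 23 with a minimum of 1 read and 455 with voom. The ratio of the 26-base bin to its neighbours, leaving out each line, was 1.08 to 1.15 times the control, an alternative chosen after seeing the data. The called upstream bins of CANX rest on 4 to 122 reads a library.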

Other observations

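The 2 RIP-seq libraries that could not be assigned to an antibody had 470 and 27 reads on the RPN1 site, 10945 and 218 on that of HSP90AA1, 11432 and 179 on that of HSP90AB1, and 169 and 11 on that of SEC63, in the order of their sample titles.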
